A study of Mus musculus with 10 samples.

Results

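The 8 genes described here are Nr6a1, Lin28a, Lin28b, Hmga2, Igf2bp1, Igf2bp2, Igf2bp3 and Igdcc3, a group whose levels change with developmental age in mouse embryos. They were selected by gene symbol, and the group was taken up because Nr6a1 was higher in embryos with a null allele of Polr1a. All 8 have a value in each of the 10 samples, out of 14796 named genes. Polr1a codes for the catalytic subunit of RNA polymerase I, which transcribes ribosomal RNA genes, and the study compared a null allele with a missense allele whose protein change is C1559F. Total RNA of the mouse telencephalon, the embryonic forebrain region that gives rise to the cerebral cortex and the basal ganglia, was sequenced at embryonic day 12. The null set, whose titles start with Polr_2048, holds 2 wild-type and 2 null samples. The missense set, whose titles start with Polr_2138, holds 3 wild-type and 3 missense samples. Comparisons were made within a set, mutant against wild type. The labels name no strain, do not give the zygosity of the samples, do not say what the numbers in the titles stand for and do not say whether samples come from separate embryos or litters, so the p-values measure only the spread between these samples.

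Nr6a1, also called germ cell nuclear factor, is an orphan nuclear receptor that represses transcription of pluripotency genes such as Pou5f1 when embryonic stem cells differentiate, and it sets the timing of Hox gene use in the extending trunk. LIN28A and LIN28B are RNA-binding proteins that block maturation of the let-7 microRNAs, while let-7 in turn represses the Lin28 transcripts, so that Lin28 is high in early progenitors and let-7 in later ones. HMGA2 is a chromatin protein of fetal neural stem cells, the 3 IGF2BP proteins bind and stabilise messenger RNAs including that of Igf2, and IGDCC3 is a cell-surface protein of the immunoglobulin superfamily. Transcripts of these genes are widely used as examples of let-7 targets.

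The let-7 microRNAs are printed first because their seed defines the sites that the 8 transcripts share. The reference held 11 let-7 and miR-98 entries with 9 distinct mature sequences, and all 9 carry the same seed, bases 2 to 8, in capitals. They are RefSeq sequences of build GRCm38.p6, read 5′ to 3′. The levels of the microRNAs themselves were not analysed here.
let-7a: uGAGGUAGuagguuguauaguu
let-7b: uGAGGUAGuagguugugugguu
let-7d: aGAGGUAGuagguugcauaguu
let-7g: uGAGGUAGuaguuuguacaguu
miR-98: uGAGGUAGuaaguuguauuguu

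The reverse complement of that seed, CTACCTC, was searched in the 3′ untranslated region of the longest coding transcript of each gene, on the transcript strand, in the GENCODE M21 annotation of GRCm38. All 8 genes held at least 1 match, against 10.6% of the 13793 genes with an annotated 3′ untranslated region. That is not independent of the choice of the genes, which are known as let-7 targets. One match of each gene is printed with its surroundings, and a further pair from Nr6a1, which held the most. Each printed match is followed by an A, whereas the matches of Nr6a1, Lin28b and Hmga2 that are not printed are followed by C or T. The printed matches are therefore not a representative sample of all matches. The capitals mark the 7 bases that pair with the seed. The coordinates are those of GRCm38, and every gene except Igdcc3 lies on the minus strand.
Nr6a1, chr2:38727443-38727472: atgttgacaaagacaaCTACCTCaatggaa
Nr6a1, chr2:38726586-38726615: ggaaaggggcattaaaCTACCTCatgtttc
Nr6a1, chr2:38723679-38723708: caagtgcatcatgaacCTACCTCaggctac
Lin28a, chr4:134005183-134005212: tgcacagcctgttgaaCTACCTCatttttg
Lin28b, chr10:45381016-45381045: cacccgggcgggaagtCTACCTCatgcaag
Hmga2, chr10:120364218-120364247: cgccgacattcaatttCTACCTCagcatca
Igf2bp1, chr11:95961772-95961801: tgctgtgcgaagtaaaCTACCTCaaggtgt
Igf2bp2, chr16:22059467-22059496: aacacacaaataaaagCTACCTCaggtgtt
Igf2bp3, chr6:49086781-49086810: gtgcatttttactcaaCTACCTCaggtatt
Igdcc3, chr9:65185706-65185735: ttgtgactctcagcacCTACCTCagccgga

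Nr6a1 carried 8 matches in 4453 bases. Of the 1100 genes whose 3′ untranslated region had a similar length (0.8 to 1.25 times), 0.1% held as many, which is Nr6a1 itself. Each share in this paragraph counts the gene itself and any other of the 8 genes of similar length. Lin28b held 4 matches in 4445 bases, Hmga2 held 4 in 3014 bases and Igf2bp1 held 4 in 6337 bases. Counts at least that high were found in 0.4%, 0.2% and 0.4% of genes of similar length. Igdcc3 held 2 matches in the shortest region, 538 bases, and 4.4% of regions of similar length held any. Lin28a held 2 matches in 2775 bases. Igf2bp2 and Igf2bp3 held 1 match each, in 1784 and 2119 bases, and 12.5% and 13.7% of genes of similar length held a match. A match is a description of the letters and does not show that a site is used in these cells.

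**Figure D1:**
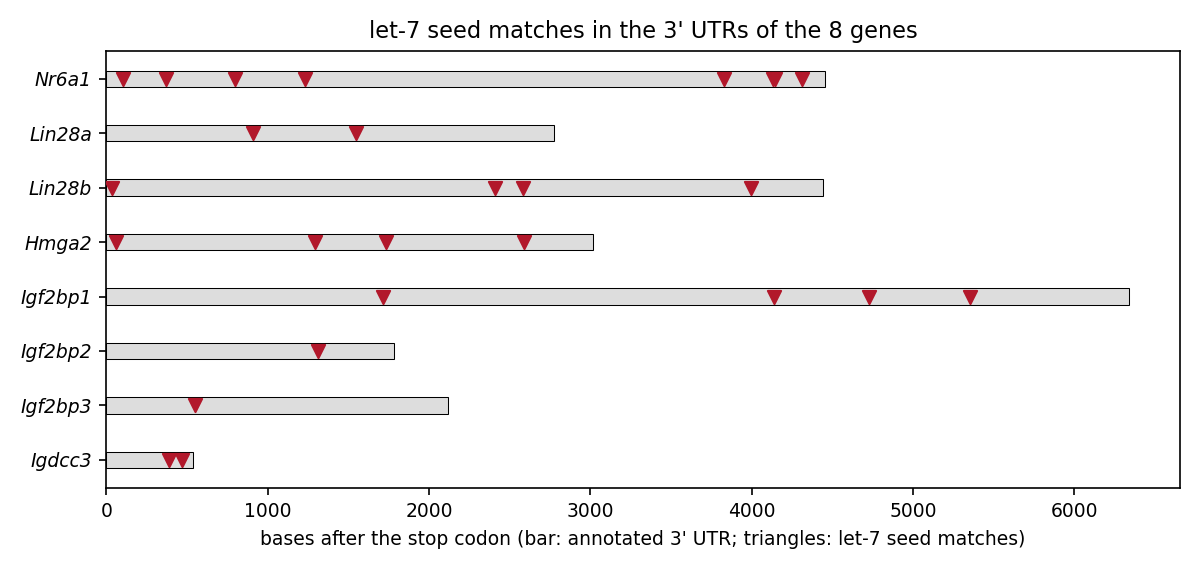
Matches to the let-7 seed in the annotated 3′ untranslated regions of the 8 genes; the horizontal axis is the distance from the stop codon in bases and each triangle is 1 match. Nr6a1 carries 8 matches, and Igf2bp2 and Igf2bp3 carry 1 each.

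The deposited values are log2 levels on a scale close to that of CPM, counts scaled to a common library total, with a shared floor of -3.16, and the sequencing depth behind them is not known. Back-transformed values summed to between 1000571 and 1000994 per sample, and 75 to 193 genes per sample lay at the floor. No value of the 8 genes was at the floor. Polr1a itself had a log2 level of 5.38 in both null-set wild types and of 4.99 and 4.82 in the null samples, a difference of -0.48 (SE 0.20, limma adjusted p = 0.563). Its level was 5.62, 5.51 and 5.64 in the missense-set wild types and 5.09, 5.66 and 5.79 in missense, a difference of -0.08 (SE 0.16, limma adjusted p = 0.964). Markers of the labelled tissue were present in every sample, with all 13 telencephalon markers, Emx1 and Emx2 among them, above the floor throughout.

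Divided by transcript length, the 8 genes spanned a wide range of levels in the 5 wild types. As back-transformed CPM per kilobase of the longest coding transcript, the level was 56.9 ± 9.52 (SD, n = 5) for Hmga2 and 44.2 ± 4.34 for Igf2bp2. It was 31.9 ± 4.25 for Igf2bp1, 30.8 ± 3.27 for Igf2bp3 and 12.6 ± 2.11 for Igdcc3. Lin28b followed at 4.76 ± 0.658, then Lin28a at 1.19 ± 0.562 and Nr6a1 at 1.06 ± 0.245. The ranges over samples of Hmga2 and Igf2bp2, of Igf2bp1 and Igf2bp3, and of Lin28a and Nr6a1 overlapped. Within a sample, Hmga2 was above Igf2bp2 in 5 of 5 wild types, Igf2bp1 above Igf2bp3 in 2 of 5 and Lin28a above Nr6a1 in 3 of 5, so the order of the latter pairs is not separated from the spread. Igdcc3 and Lin28b overlapped no other gene of the 8. Between the LIN28 genes, Lin28b was thus the more abundant transcript in every wild type.

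**Figure D2:**
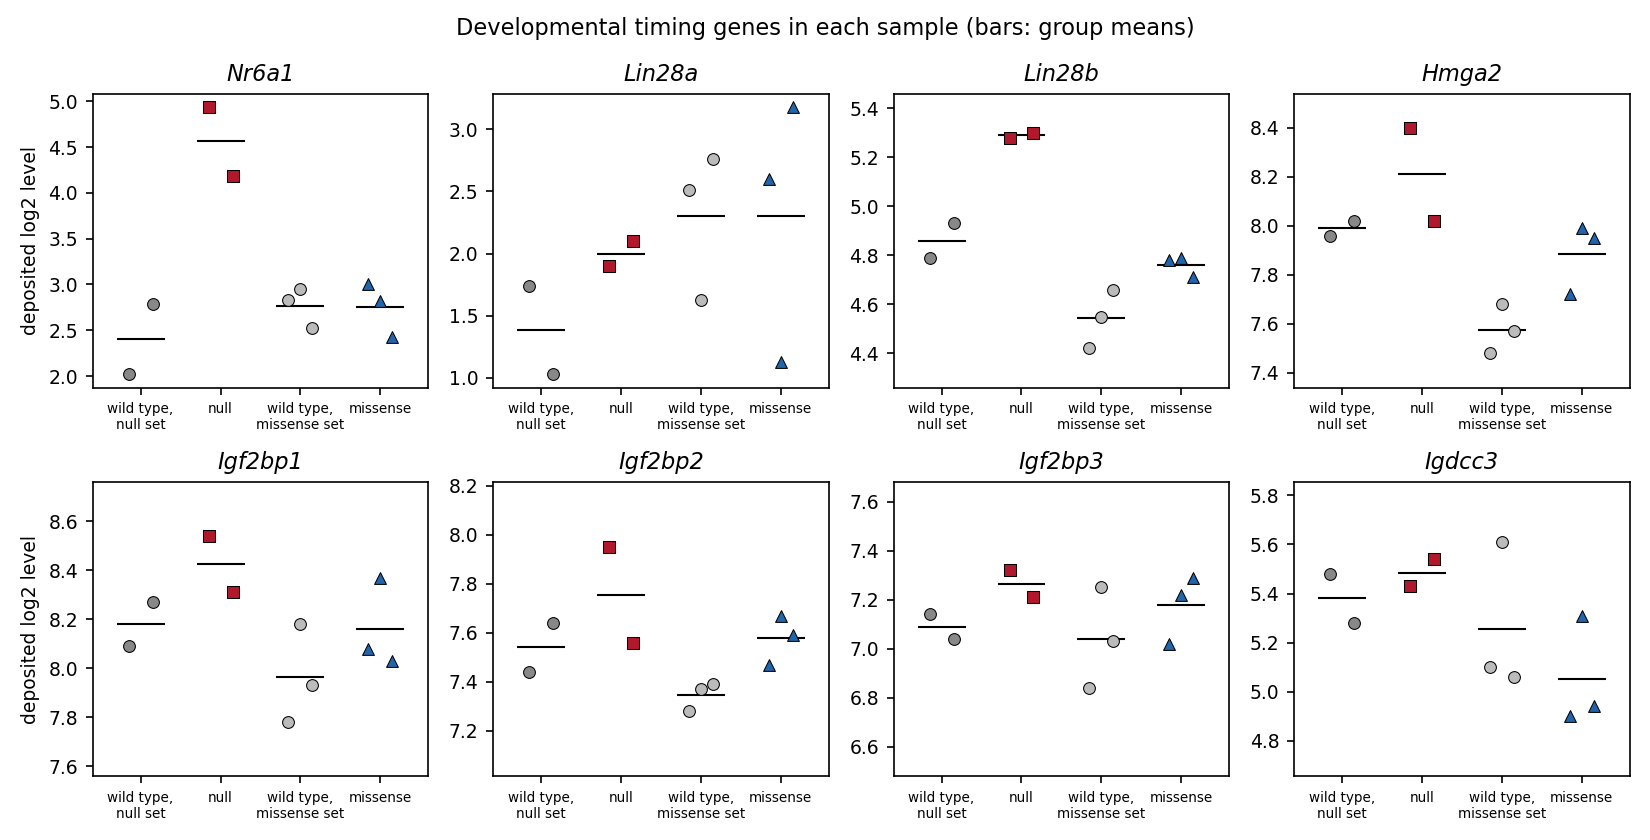
Deposited log2 level of the 8 genes in each of the 10 samples, with points for samples by group and a short line for each group mean (n = 2, 2, 3 and 3). Both null samples of Nr6a1, at 4.94 and 4.19, sit above all other samples, which lie between 2.02 and 3.0.

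Nr6a1, the gene for which the group was taken up, was low in wild type and missense and several-fold higher in the null samples. Its log2 level was 2.02 and 2.79 in the null-set wild types and 4.94 and 4.19 in the null samples. The missense-set wild types were at 2.83, 2.95 and 2.52 and the missense samples at 3.0, 2.82 and 2.43. Both null samples were therefore above every other sample, and wild type and missense overlapped. On the linear scale the null samples were at 18.3 and 30.8 CPM and the 5 wild types between 4.06 and 7.73 CPM. The difference between null and wild type was 2.16 on the log2 scale (SE 0.35), or 4.48-fold. These are the values from which the genes were chosen, so they are given without a test. In bulk tissue, a change in the share of cells that carry a transcript and a change in the amount per cell cannot be told apart.

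The missense allele gave a difference of -0.02 for Nr6a1 (SE 0.29, 95% interval -0.65 to 0.62, limma adjusted p = 0.995). The sign of that value turned under other settings. The interval lies below the 2.16 of the null samples, but a difference between the mutants was not tested. The wild types of the missense set exceeded those of the null set by 0.36 (SE 0.32). An antisense gene, Nr6a1os, overlaps Nr6a1 and has no value of its own, and the strandedness of the libraries and the counting is not given in the sources used here. Reads of these genes cannot be told apart.

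The LIN28 genes differed from each other in level and in spread. Lin28b was at 4.79 and 4.93 in the null-set wild types and at 5.28 and 5.30 in the null samples on the log2 scale. The missense-set wild types were at 4.42, 4.55 and 4.66 and the missense samples at 4.78, 4.79 and 4.71. Both null samples were above all 8 other samples, and all 3 missense samples were above the wild types of their own set and reached no further than the lower of the null-set wild types at the precision given. The null difference was 0.43 (SE 0.14), or 1.35-fold. The missense difference was 0.22 (SE 0.12, 95% interval -0.04 to 0.48) and did not pass the test (limma adjusted p = 0.902).

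Lin28a had a log2 level of 1.74 and 1.03 in the null-set wild types and of 1.90 and 2.10 in the null samples. Values were 2.51, 1.63 and 2.76 in the missense-set wild types and 2.60, 1.13 and 3.18 in missense. The null samples were above their own wild types but inside the range of the missense-set wild types. The null difference was 0.61 (SE 0.62), and it was 0.26 without null-set wild type 2 and 0.97 without null-set wild type 1. The missense difference was 0.00 (SE 0.50, 95% interval -1.11 to 1.12, limma adjusted p = 0.999), so that changes of more than 2-fold in either direction lie within the interval. Its SD within the missense group, 1.06, was the highest of the 8 genes.

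Hmga2 was the one gene of the 8 whose missense difference had an unadjusted p under 0.05. Its log2 level was 7.48, 7.68 and 7.57 in the missense-set wild types and 7.72, 7.99 and 7.95 in missense, and the groups did not overlap. The difference was 0.31 (SE 0.11, 1.24-fold, 95% interval 0.07 to 0.55), with an unadjusted p of 0.0169 and a limma adjusted p of 0.884 over all genes. In the null set it was 7.96 and 8.02 in wild type and 8.40 and 8.02 in null. Here only null 1 stood above the wild types, and the difference of 0.22 (SE 0.13) became 0.03 without null 1 and 0.41 without null 2. Wild types of the null set were higher than those of the missense set by more than the missense difference, with -0.42 (SE 0.12) for missense-set minus null-set wild type.

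The IGF2BP genes were among the more abundant transcripts of the group. Over all samples Igf2bp1 ranged from 7.78 to 8.54, Igf2bp2 from 7.28 to 7.95 and Igf2bp3 from 6.84 to 7.32. Igf2bp1 was at 8.09 and 8.27 in wild type and at 8.54 and 8.31 in null on the log2 scale, and at 7.78, 8.18 and 7.93 against 8.08, 8.37 and 8.03 in the missense set. Igf2bp2 was at 7.44 and 7.64 in wild type and at 7.95 and 7.56 in null, and at 7.28, 7.37 and 7.39 against 7.47, 7.67 and 7.59 in the missense set. Igf2bp3 was at 7.14 and 7.04 in wild type and at 7.32 and 7.21 in null, and at 6.84, 7.25 and 7.03 against 7.02, 7.22 and 7.29 in the missense set. In null, both samples were above their wild types for Igf2bp1 and Igf2bp3 and null 1 alone for Igf2bp2. In missense, the groups separated for Igf2bp2 and overlapped for Igf2bp1 and Igf2bp3.

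The null differences were 0.25 (SE 0.15) for Igf2bp1, 0.21 (SE 0.13) for Igf2bp2 and 0.18 (SE 0.14) for Igf2bp3. Without null 1 these were 0.13, 0.02 and 0.12, and that of Igf2bp2 was 0.41 without null 2. Without null-set wild type 1 that of Igf2bp1 was 0.16. The missense differences were 0.20 (SE 0.12), 0.23 (SE 0.11) and 0.14 (SE 0.11), with limma adjusted p values of 0.902, 0.902 and 0.929. None of the 3 passed the test. For Igf2bp2 the interval was 0.00 to 0.47 and the unadjusted p was 0.0535.

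Igdcc3 was at 5.48 and 5.28 in wild type and at 5.43 and 5.54 in null on the log2 scale. The missense-set wild types were at 5.10, 5.61 and 5.06 and the missense samples at 4.90, 5.31 and 4.94. The groups overlapped in both sets. The null difference was 0.11 (SE 0.21), and it was 0.01 without null-set wild type 2, 0.05 without null 2 and 0.20 without null-set wild type 1. The missense difference was -0.20 (SE 0.17, 95% interval -0.58 to 0.17, limma adjusted p = 0.929), and it was -0.03 without missense-set wild type 2.

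**Figure D3:**
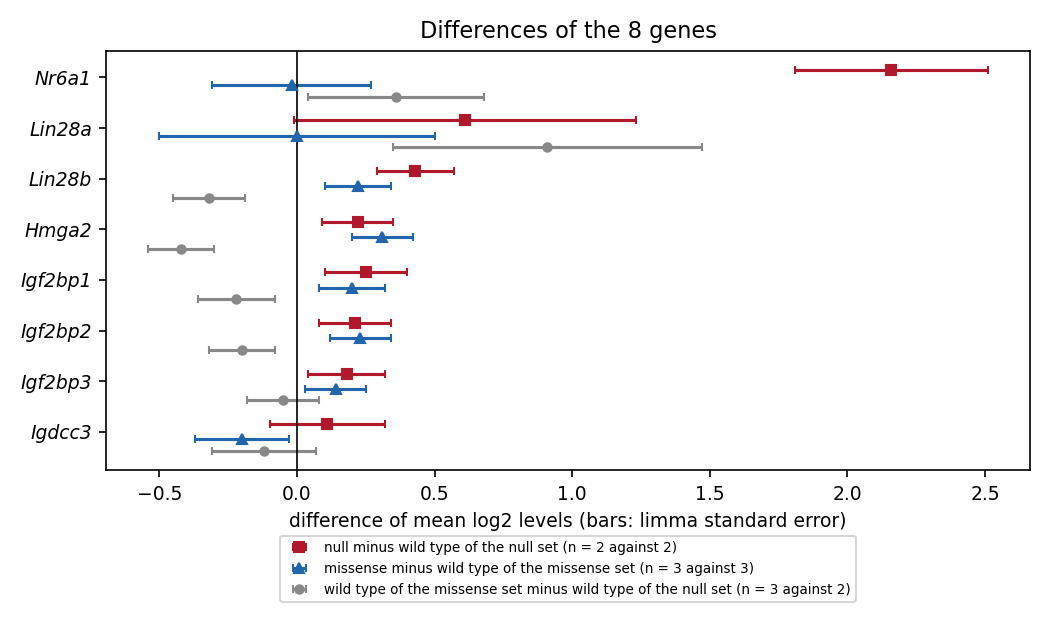
Differences in log2 level for the 8 genes (horizontal axis), with bars of 1 SE: null minus wild type of the null set (n = 2 against 2), missense minus wild type of the missense set (n = 3 against 3) and missense-set wild type minus null-set wild type (n = 3 against 2). Nr6a1 in null, at 2.16, stands apart from all other points, which lie between -0.42 and 0.91.

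Across the 8 genes, all 8 null differences were above 0, as were 54.7% of those of all genes. Both null samples were above both wild types of their set for 5 of the 8, against 22.9% of all genes, and above all 5 wild types for 3 of the 8 (Nr6a1, Lin28b and Igf2bp1), against 8.95% of all genes. At an adjusted p under 0.05, 0.162% of all genes were called in null, 5 of 24 upward, and no call is given for the 8. The median difference of the 8 was 0.23, or 0.22 without Nr6a1, and that of all genes was 0.03. Since the group was chosen from this contrast, nothing is read from these counts.

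In missense, 6 of the 8 differences were above 0, against 54% of all genes, and the median was 0.17 against 0.02 for all genes. None of the 8 was called by limma, against 0.0203% of all genes (3 genes), and 1 had an unadjusted p under 0.05, against 5.54% of all genes. All missense samples were above all wild types of their set for 3 of the 8, Lin28b, Hmga2 and Igf2bp2, against 6.02% of all genes. For the same 3 genes, the 3 missense-set wild types all lay under both null-set wild types, against 9.76% of all genes. With all 5 wild types as 1 group the missense differences were 0.09 for Lin28b, 0.14 for Hmga2 and 0.15 for Igf2bp2. That grouping mixes the difference between the sets into the comparison, and the part of the set in these values was not tested.

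Likeness between the 8 genes over the 10 samples is given as a description, with no test. Pearson's r with Lin28b was 0.84 for Hmga2, 0.80 for Igf2bp1, 0.78 for Igf2bp2, 0.76 for Nr6a1, 0.52 for Igf2bp3, 0.40 for Igdcc3 and -0.25 for Lin28a. With Nr6a1, r was 0.67 for Igf2bp1, 0.64 for Igf2bp2, 0.59 for Hmga2, 0.39 for Igf2bp3, 0.37 for Igdcc3 and -0.11 for Lin28a. The samples share genotypes and title numbers, so these values carry the group differences.

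Among 10722 genes outside the lowest 25% by mean level, the 5 with the highest Pearson correlation with Nr6a1 over the 10 samples were Wnt3 (0.929), Lrrn1 (0.919), Chml (0.918), Wfs1 (0.902) and Pds5a (0.894). Wnt3 encodes a secreted WNT ligand and was at 3.30 in both null-set wild types and at 4.28 and 4.19 in null on the log2 scale. The null differences of the 5 ran from 0.32 for Pds5a to 0.94 for Wnt3, all smaller than that of Nr6a1. The 5 most like Lin28b were Ube2d3 (0.924), Dnajc3 (0.922), Otx1 (0.913), Api5 (0.896) and Phldb2 (0.891). Otx1, a homeobox gene of forebrain and midbrain, had a null difference of 0.43 (SE 0.13), the same size as Lin28b. Ranked by Spearman correlation instead, 1 of the 5 genes was shared for each of Nr6a1 and Lin28b.

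The neighbours of Nr6a1 on chromosome 2 had smaller differences in null. The log2 difference was -0.06 for Nek6, -0.17 for Psmb7, -0.10 for Rpl35, 0.27 for Olfml2a and -0.65 for Wdr38. Nr5a1, the adjacent nuclear receptor gene, had -1.45 with an SE of 1.12.

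The genes that process and degrade let-7 did not pass the test in either mutant. Of 25 measured, 0 were called in null and 0 in missense, the medians were 0.06 and 0.02, and 15 and 16 had differences above 0. At an unadjusted p under 0.05 there were 2 in null, both higher, where 5.04% of all genes were higher and 3.28% lower by that rule. There was 1 in missense, also higher, where 3.2% of all genes were higher and 2.33% lower. The former were Zcchc6, the uridylyl transferase also named Tut7, with 0.33 (SE 0.12), and Mov10, an RNA helicase of the silencing machinery, with 0.66 (SE 0.27). The latter was Zcchc11, or Tut4, which LIN28A recruits to uridylate precursor let-7, with 0.30 (SE 0.10, limma adjusted p = 0.884). Zcchc11 was at 7.41, 7.26 and 7.53 in wild type and at 7.64, 7.68 and 7.79 in missense, without overlap. Dicer1, which cuts the precursor, differed by 0.00 in null and 0.01 in missense, and Dis3l2, which degrades uridylated precursor, by 0.13 and -0.09. Trim71, a let-7 target and ubiquitin ligase gene, was listed here and among the targets below, and was at 2.56 and 3.05 in wild type and 3.37 and 3.14 in null, with a difference of 0.45 (SE 0.35). Of 20 listed let-7 genes and hosts, 2 had values. Wdr82 had differences of -0.09 in null and -0.10 in missense and Huwe1 of 0.02 and 0.04.

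Other reported let-7 targets had differences of both signs. Of 51 measured, 0 were called in either mutant, 26 had null differences above 0 with a median of 0.02, and 33 had missense differences above 0 with a median of 0.03. At an unadjusted p under 0.05, 3 were higher and 3 lower in null, and 0 were higher and 2 lower in missense, beside the all-gene shares given for the let-7 genes above. Thbs1, an extracellular matrix glycoprotein gene, had 0.80 (SE 0.22) in null. Dusp4, a MAP kinase phosphatase gene, had -0.48 (SE 0.14). In missense, Nr2e1, a nuclear receptor of neural stem cells, had -0.32 (SE 0.12) and Map4k4, a kinase gene, had -0.17 (SE 0.07), each with a limma adjusted p of 0.884. The target list was drawn from reputation and holds genes shown as targets in other tissues.

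Outside the 8 genes, the difference varied little with the number of seed matches. In null the median difference was 0.03 for the 12327 genes without a match, 0.05 for the 1278 with 1, 0.05 for the 157 with 2 and 0.09 for the 23 with 3 or more. In missense the medians were 0.02, 0.02, 0.03 and 0.04. Genes with more matches had longer 3′ untranslated regions, with a median of 1087 bases without a match and 5116 bases with 3 or more. Of the 23 genes with 3 or more matches, 60.9% were above 0 in null and 78.3% in missense, against 54.3% and 54.0% of genes without a match, and 0 of the 23 passed the test in either mutant.

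Genes linked to pluripotency, the best-known targets of Nr6a1 repression, showed no common direction. Of 34 listed, 15 had values, and Pou5f1 was not among them. None of the 15 was called in either mutant, and medians were 0.10 in null and 0.03 in missense. By the unadjusted p, 2 were higher and 1 lower in null and 0 in either direction in missense. Of all genes, 5.04% were higher and 3.28% lower in null, and 3.2% and 2.33% in missense. Sox2, a transcription factor of neural progenitors as well, was at 8.49 and 8.43 in wild type and 8.09 and 8.03 in null, a difference of -0.40 (SE 0.10). Otx2, which is also made in choroid plexus and diencephalon, had 0.62 (SE 0.21), and Tbx3 had 1.66 (SE 0.70). In missense, Fgf8 had 0.93 (SE 0.44) and Sall4 had 0.68 (SE 0.34), each with a limma adjusted p of 0.902. Sall4 was at 2.43, 2.79 and 2.69 in wild type and at 2.47, 3.70 and 3.77 in missense, so that missense 1 lay within the wild types.

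Of 48 listed symbols of trunk and Hox genes, the class whose timing Nr6a1 sets in the trunk, 6 had values: Hoxa3, Hoxd1, T, Gdf11, Nkx1-2 and Tbx6. None was called in either mutant, and 0 reached an unadjusted p under 0.05. Apart from Gdf11 they lay at log2 levels under 3, down to -3.16 for Hoxd1, the value of the floor. The median differences of the 6 were 0.94 in null and -0.08 in missense. T, the brachyury gene of early mesoderm, was at -0.31 and 0.18 in wild type and -2.04 and -2.26 in null, a difference of -2.08 (SE 0.96). Nkx1-2 had 1.21 (SE 0.89), Tbx6 had 1.03 (SE 0.67) and Hoxa3 had 0.85 (SE 1.28). The null samples of Hoxa3 were at -1.83 and 1.31.

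Late progenitor and glial genes, which mark the later end of the same developmental schedule, had differences of both signs. Of 27 measured, 0 were called in either mutant, and the medians were -0.01 in null and -0.04 in missense. At an unadjusted p under 0.05, 3 were higher and 4 lower in null, and 0 were higher and 3 lower in missense. Over all genes these shares were 5.04% and 3.28% in null and 3.2% and 2.33% in missense. Id4, an inhibitor of basic helix-loop-helix factors, was at 8.72 and 8.86 in wild type and 8.46 and 8.33 in null, a difference of -0.40 (SE 0.09). Mt3, the brain metallothionein gene, was at 4.69 and 3.94 in wild type and 3.49 and 2.77 in null, a difference of -1.19 (SE 0.30), and Apoe had 0.74 (SE 0.28). In missense, Nfia, a transcription factor of the onset of gliogenesis, had -0.43 (SE 0.17), Aldoc had -0.67 (SE 0.24) and Mt3 had -0.58 (SE 0.24). Each of these had a limma adjusted p of 0.884. Nfia and Aldoc also differed between the wild types, since every wild type of the missense set was above every wild type of the null set for both genes, as for 13.7% of all genes.

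The list of insulin-like growth factor genes holds ligands, receptors, adaptors and binding proteins, together with the genes of the IGF2BP proteins, which are named for the Igf2 message, and a few related growth regulators. Of 19 measured, including Igf2bp1, Igf2bp2 and Igf2bp3, 0 were called in either mutant. In null, 13 were above 0 with a median of 0.18, and in missense 18 were above 0 with a median of 0.14. Of all genes, 54.7% were above 0 in null and 54% in missense, with medians of 0.03 and 0.02. By the unadjusted p, 2 were higher in null, Igf2 and Igf1, and 0 in missense, where 5.04% and 3.2% of all genes were higher. Igf2, the fetal growth factor gene, was at 9.01 and 8.68 in wild type and at 9.38 and 9.78 in null, a difference of 0.73 (SE 0.23). Levels in the missense set were 9.29, 8.99 and 9.41 in wild type and 9.32, 9.44 and 10.02 in missense, a difference of 0.36 (SE 0.19, limma adjusted p = 0.902) with overlapping groups. Igf1 had 0.76 (SE 0.32) in null. Irs4, an adaptor of the insulin receptor, had -0.45 in null and 0.40 in missense. Igf2 is also strongly expressed by mesenchyme, and the summed level of 20 mesenchyme markers was 2350 to 2740 CPM in the null-set wild types and 3400 to 4320 in null. It was 2490 to 3800 in the missense-set wild types and 3100 to 4050 in missense, and its part in the Igf2 values was not tested.

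Paralogues of the 8 genes were 15 in number, and 0 were called in either mutant. The medians were -0.03 in null and -0.05 in missense, with 6 and 5 differences above 0. Nr2f2, which codes for the nuclear receptor COUP-TFII, had 0.25 in null and 0.02 in missense, and Nr2c2 had -0.03 and -0.23. Igdcc4, a relative of Igdcc3, had 0.41 (SE 0.96) in null and -1.15 (SE 0.78) in missense.

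Markers of other tissues and regions differed between null and wild type beside Nr6a1, and their part in the values of the 8 genes was not tested. All 15 ventral telencephalon markers had null differences under 0, of which 8 were called, where 0.128% of all genes were called lower. Their summed level was 1180 to 1360 CPM in the null-set wild types and 532 to 556 in null, and 1070 to 1150 in wild type and 889 to 958 in missense. All 15 markers of cortical hem or Cajal-Retzius cells were above 0 in null, with 1 called, where 0.0338% of all genes were called higher, and summed to 619 to 641 in wild type and 884 to 946 in null. These hem markers summed to 742 to 761 in the missense-set wild types and 770 to 888 in missense.

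The 19 measured diencephalon, eye and midbrain markers, a list that holds Otx1, summed to 346 to 375 CPM in the null-set wild types and 610 to 712 in null. Sums were 320 to 533 in the missense-set wild types and 365 to 552 in missense. Of the 19, 14 had null differences above 0 and 5 under 0, where 54.7% of all genes were above 0. Vax1 had -2.36 (SE 0.42), and Tcf7l2, the most abundant of the 19, had 1.33 (SE 0.44). The 15 microglia and macrophage markers summed to 73.6 to 80.7 in wild type and 150 to 158 in null, and to 91.7 to 113 in wild type and 127 to 158 in missense. Tyrobp, 1 of the 15, was at the floor in at least 1 sample. The 14 measured epithelium markers summed to 87.3 to 96.3 in wild type and 127 to 158 in null, and to 89 to 166 in wild type and 126 to 276 in missense. For the ventral, hem, diencephalon and microglia sums the range of the null samples was apart from the ranges of wild type in both sets. The same held for the neuron and telencephalon sums given below. The hem sums of missense reached up to 888. The 13 neural progenitor markers summed to 5660 to 5740 in wild type and 5160 to 5420 in null, and to 4980 to 5470 in wild type and 4860 to 5690 in missense. The 14 neuron markers summed to 3990 to 4530 in wild type and 3390 to 3790 in null, and to 4590 to 4810 in wild type and 3980 to 4720 in missense. The 13 telencephalon markers summed to 2290 to 2560 in wild type and 1680 to 1880 in null, and to 2240 to 2400 in wild type and 1770 to 2050 in missense. The 9 choroid plexus markers summed to 155 to 192 in wild type and 250 to 321 in null, and to 240 to 271 in wild type and 247 to 333 in missense. Sums of the 14 erythroid markers overlapped between null and wild type, at 5570 to 8720 in the null-set wild types and 7570 to 8950 in null, and were 7330 to 8650 in the missense-set wild types and 7020 to 8500 in missense, with Klf1 at the floor in at least 1 sample. The 14 endothelium and pericyte markers summed to 292 to 298 in wild type and 317 to 407 in null, with 13 above 0 in null and 0 called. In the missense set they summed to 322 to 349 in wild type and 305 to 380 in missense, and Kcnj8 was at the floor in at least 1 sample.

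**Figure D4:**
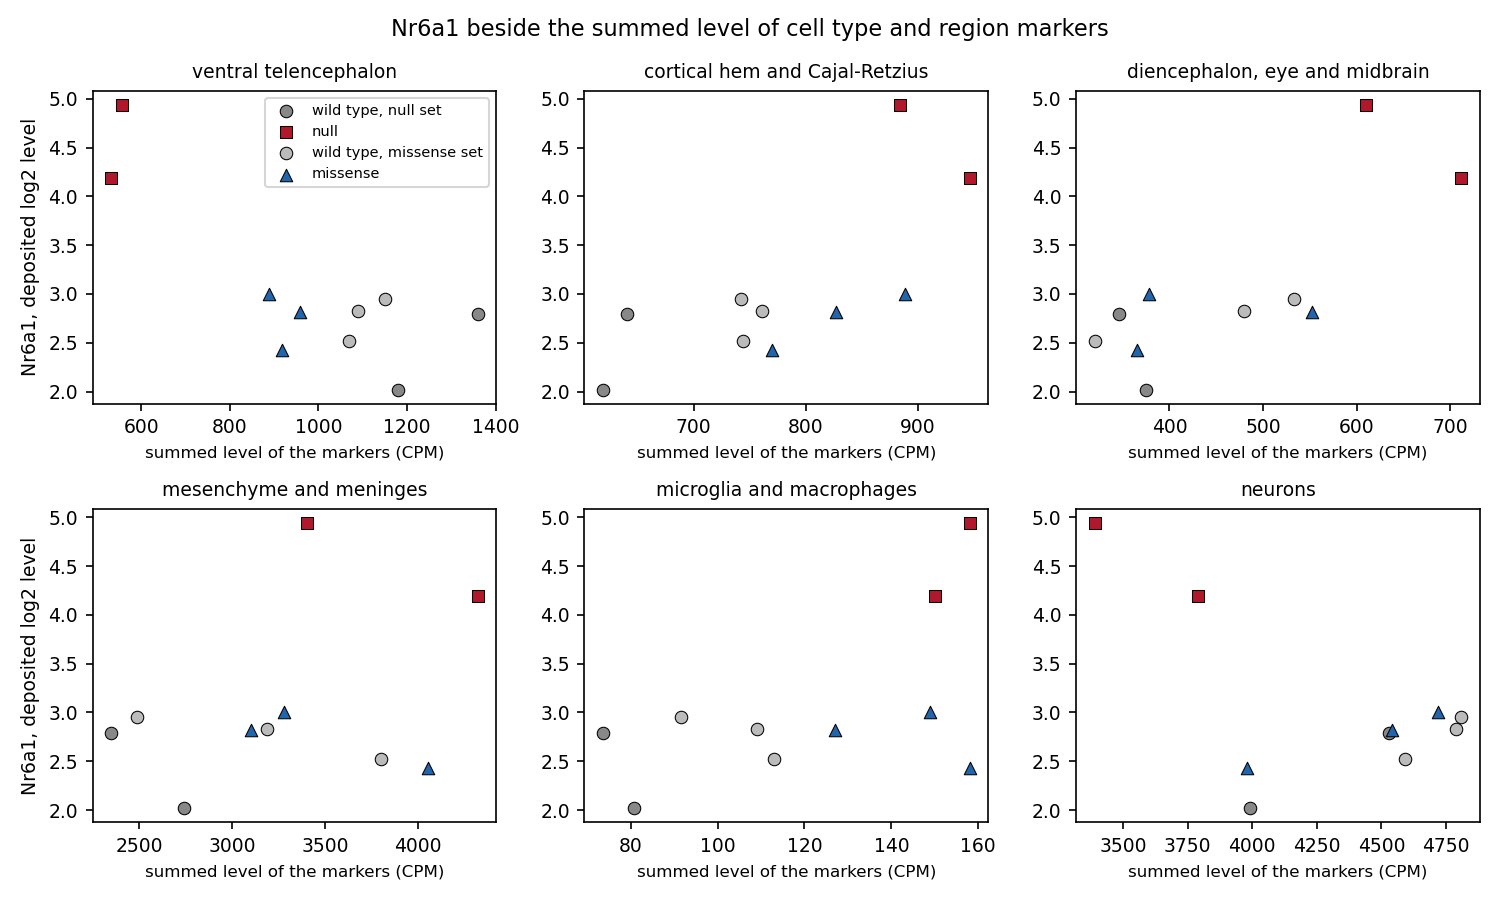
Nr6a1 log2 level of each sample (vertical axis) against the summed level of marker lists in the same sample (horizontal axis, CPM), 1 point per sample, coloured by group. The null samples, at 4.94 and 4.19, are above all others in each panel; their ventral sums, 532 to 556 CPM, are the lowest and their diencephalon sums, 610 to 712 CPM, the highest of the 10 samples.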

How the data were processed

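RNA sequencing of telencephalon gave 1 deposited log2 value per gene and sample, which the authors had filtered and normalized, as stated in its file name. The build is GRCm39 per the submitters' processing notes, and the aligner is not given in the sources used here, nor is the counting method. Low back-transformed values did not step by whole reads, which leaves the depth unknown. Of 14797 genes, 1 without a name was left out. A linear model of 4 groups was fitted in R 4.3.3 with limma 3.58.1 to all genes (with version 1.17.8 of data.table), with a variance trend, 6 residual and 4.83 prior degrees of freedom, 2-sided tests and Benjamini-Hochberg adjustment over 14796 genes at 0.05. Sequence searches and figures used Python 3.11.15, pandas 2.3.3 and matplotlib 3.10.9.

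The genes, lists and tests were chosen with earlier results of these data known. Named genes are the 8 genes, up to 3 genes per list and mutant with the smallest unadjusted p, and the 5 most correlated with Nr6a1 and with Lin28b that are not predicted models, pseudogenes or microRNAs. Dicer1, Dis3l2, Trim71, Igdcc4, Wdr82 and Huwe1 and the neighbours of Nr6a1 were added after their values were seen. A few genes named by this rule are not reported here. Symbols absent from the file were matched to older ones (Tut4 to Zcchc11, Tut7 to Zcchc6). On simulated data, log2 changes of 0.5, 1 and 2 were recovered in 7.46%, 31.3% and 80.3% of genes in null and in 8.96%, 47.8% and 86.4% in missense. Alternatives were no title-number term, the samples of 1 title number alone, median centring, quantile normalization, leaving out the lowest 25% of genes by mean level, a pseudocount of 1, no variance trend, robust variances, sample weights and leaving out each sample. A lone sample that such a fit left in a group was assumed to vary as the others do. Sample pairs correlated at 0.938 to 0.964, and none was a duplicate.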

Additional observations from a re-analysis of the deposited data

Results flagged for a closer look

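Among the 46 named genes checked, 3 had null samples that all lay on one side of the mean of their wild types and missense samples that all lay on the other side. The null difference minus the missense difference was 0.44 for Zcchc6 (0.33 in null, -0.11 in missense), 0.55 for Nfia (0.11 and -0.43) and -0.84 for Irs4 (-0.45 and 0.40), on the log2 scale. Wnt3, named for its correlation with Nr6a1 and not among the 46, met the same rule, with 0.94 in null and -0.13 in missense. The difference between the mutants was not tested for any of these genes. No group had 4 or more samples, so single samples far from their group were not looked for in this way.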

How the results depend on the processing

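No paired analysis was possible because the labels give no number that pairs samples across groups. In null, 24 genes were called; the count was 59 with no title-number term, 6 with no variance trend and 0 with the samples of the own title number only, where 1101 genes had an unadjusted p under 0.05. Leaving out 1 sample gave 2 to 23 calls, with 2 without null 2, 7 without null-set wild type 2, 8 without missense-set wild type 1, 12 without null-set wild type 1 or missense-set wild type 3 and 14 without missense 2. In missense, 3 genes were called and leaving out 1 sample gave 2 to 10, with 10 without missense-set wild type 2 and 6 without null 1 or null 2. The Nr6a1 null difference, 2.16, was 1.78 to 2.55 leaving out 1 sample of the null set. It was 1.94 with no title-number term, 1.97 with a pseudocount of 1 and 2.01 with quantile normalization. Leaving out a missense-set sample, the gene filter and the variance settings cannot move this difference, so they do not test it. The missense difference of Nr6a1, -0.02, was 0.13 with no title-number term, 0.05 with sample weights and -0.14 to 0.14 leaving out 1 sample. That of Lin28a, 0.00, was -0.02 with median-centred samples, -0.08 with quantile normalization, -0.14 with sample weights and -0.44 to 0.59 leaving out 1 sample; Lin28a is among the lowest 25% of genes, so the filter gave no value for it. With no title-number term the null differences were 0.07 for Lin28a, 0.62 for Lin28b and 0.47 for Hmga2, and the missense differences were 0.09 for Lin28b, 0.14 for Hmga2, 0.11 for Igf2bp1 and 0.15 for Igf2bp2, against 0.22, 0.31, 0.20 and 0.23. Leaving out 1 sample gave missense differences of 0.15 to 0.27 for Lin28b, 0.09 to 0.31 for Igf2bp1, 0.04 to 0.25 for Igf2bp3 and -0.33 to -0.03 for Igdcc3. No gene of the 8 was called in missense under any alternative, and the lowest adjusted p was 0.648, for Hmga2. The cause of these shifts was not tested. Median centring moved the null and missense differences by -0.034 and -0.025. With 2 or 3 samples a group, most log2 changes of 0.5 were missed in simulated data.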
